A study of Mus musculus with 2 samples.

Results

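In a culture of mouse embryonic stem cells kept for 72 hours in LIF and BMP4, 174 cells carried a high summed level of 7 genes: Calb2, Lrrc31, Nkx6-2, Pgc, S100a13, Fabp3 and Ly6g6e. They were chosen from 1783 LB cells that had at least 1000 detected genes and at most 10% of their UMIs (unique molecular identifiers, 1 per captured RNA molecule) from mitochondrial genes. The 178 cells in the top 10% by the share of UMIs from the 7 genes were taken, and 4 of them, with 8 to 17 UMIs of T, Mesp1, Hand1 and Foxf1 together, were then left out because more than 1 such UMI was not allowed. The remaining 174 made up 9.76% of the LB cells and 8.81% of their UMIs, and they are called score cells here. They were compared with the other 1609 LB cells. Since 641 of those (39.8%) were over the limit on T, Mesp1, Hand1 and Foxf1, values are also given against the 968 that met it.

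Both libraries of the series are labelled as R1 embryonic stem cells in N2B27 medium. On gelatin, LB cells received LIF, which activates STAT3 and maintains self-renewal, together with BMP4, which activates SMAD factors. LBPXRS held LIF and BMP4 with PD0325901 (a MEK inhibitor), Xav939 (a tankyrase inhibitor that dampens WNT signalling), a resorcylic lactone and SB431542 (which blocks activin and NODAL receptors), and its cells grew on fibronectin. Effects of substrate and of medium cannot be told apart. Each condition had 1 library. No test across samples was possible, and all intervals are exact 95% intervals that cover counting error only. The libraries also stood apart in a way their labels do not give: Y-linked genes had 2872 UMIs (63.1 CPM, counts per 1000000 UMIs) in LB and 1 UMI (0.0193 CPM) in LBPXRS. Whether both libraries came from the same line was not tested, so comparisons of LB with LBPXRS may also be between different cells. Of 10 barcodes present in both libraries, 8 passed the filters, and 2 belonged to score cells.

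Embryonic stem cells move between a naive state, which resembles the preimplantation epiblast and is held by factors such as Klf4, Esrrb and Tfcp2l1, and a formative state that precedes lineage choice and turns on Dnmt3b, Pou3f1 and Otx2. From there, BMP and WNT signals lead towards the primitive streak and mesoderm. The 7 score genes have no single known shared function. Fabp3 encodes a fatty acid binding protein of heart and muscle, Calb2 the calcium-binding protein calretinin of neurons, S100a13 a small calcium-binding protein, Nkx6-2 a homeobox factor of neural progenitors, Pgc the stomach protease precursor pepsinogen C, and Ly6g6e a surface protein of the Ly6 family, while Lrrc31 is a leucine-rich repeat protein.

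The score cells were mainly Fabp3-high cells, and the name Calb2 and Nkx6-2 high described only some of them. Fabp3 gave 67.0% of the score UMIs pooled over the 174 cells, with a median of 64.5% per cell and quartiles of 53.9% and 75%. A Fabp3 UMI was present in 172 of the 174. Calb2 was detected in 61 score cells (35.1%) and Nkx6-2 also in 61 (35.1%). Either gene was found in 93 (53.4%, interval 45.7% to 61.0%), both in 29 (16.7%), and neither in 81 (46.6%). Among the other LB cells, either was found in 248 (15.4%) and both in 22 (1.37%). The sets chosen by different genes overlapped in part. A score of Calb2 and Nkx6-2 alone took 168 cells, of which 72 were score cells, 41.4% of the score cells and 42.9% of that set. Fabp3 alone took 171 cells that held 144 of the score cells (82.8%), and the 6 genes other than Fabp3 took 176 cells that held 106 of them (60.9%).

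The score formed a continuous range with no gap at its threshold. The lowest score inside was 0.0558% of a cell's UMIs and the highest outside 0.0557%. The 5th cells to either side had 0.0566% and 0.0551%, and 61 cells, 30 of them score cells, lay within 10% of the threshold. The median over the score cells was 0.0825%, with quartiles of 0.0643% and 0.114% and a highest value of 0.370%. The other LB cells had a median of 0.00641%, and those under the limit 0.0141%. A score cell held 3 to 108 score UMIs, with a median of 19, against a median of 2 in the others, of which 495 (30.8%) had none. Of the limit genes, 152 score cells had 0 UMIs and 22 had 1.

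**Figure D1:**
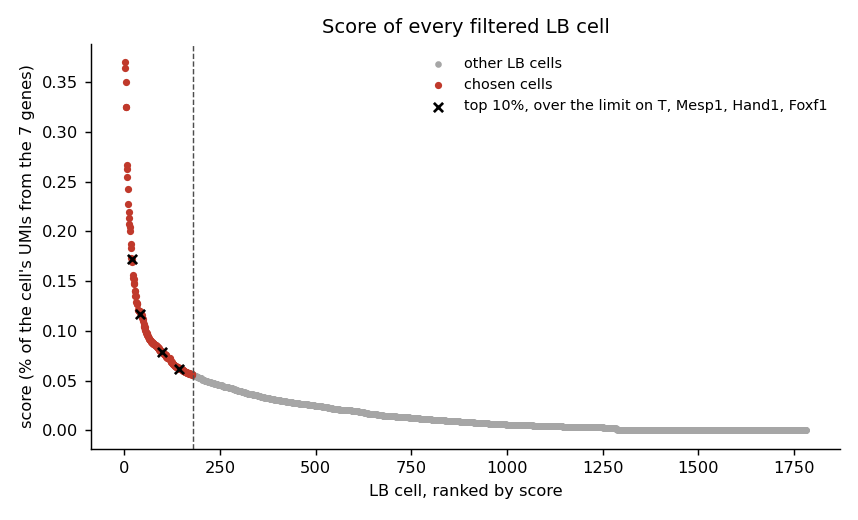
Score of every filtered LB cell, as the percent of its UMIs from the 7 genes (vertical axis), ranked from highest to lowest (horizontal axis). The dashed line marks the end of the top 10%: the 174 chosen cells are in red, the 4 over the limit are crosses, and the score runs on without a step at the line, from 0.0558% to 0.0557%.

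All 7 genes were higher in the score cells, as the choice required, but by unequal amounts. These values are a description and carry no test. Fabp3 stood at 667 CPM (642 to 693) in the score cells, 88.9 CPM in the others under the limit and 67.8 CPM in all others, a log2 ratio of 3.28 against all others. Ly6g6e had 104 CPM (94.1 to 114) against 24.2 CPM (log2 ratio 2.06) and was second in level. Pgc, Lrrc31 and S100a13 lay close together in the score cells, at 57.7 CPM (50.5 to 65.6), 54.4 CPM (47.4 to 62.1) and 53.4 CPM (46.5 to 61.1), and these intervals overlap. S100a13 differed from that pair by its level elsewhere, at 7.45 CPM in all others and 6.20 CPM in those under the limit. For Pgc the corresponding values were 12.8 and 19.5 CPM, and for Lrrc31 10.7 and 16.7 CPM. S100a13 was thus the only 1 of the 7 that was lower under the limit than in all others. Calb2 at 30.2 CPM (25.1 to 36.1) and Nkx6-2 at 28.7 CPM (23.7 to 34.5) were the lowest, and their intervals overlap. In the others they had 3.83 and 4.72 CPM, log2 ratios of 2.69 and 2.38. Levels are per UMI, and this 3′ assay gives 1 tag per molecule without regard to gene length.

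**Figure D2:**
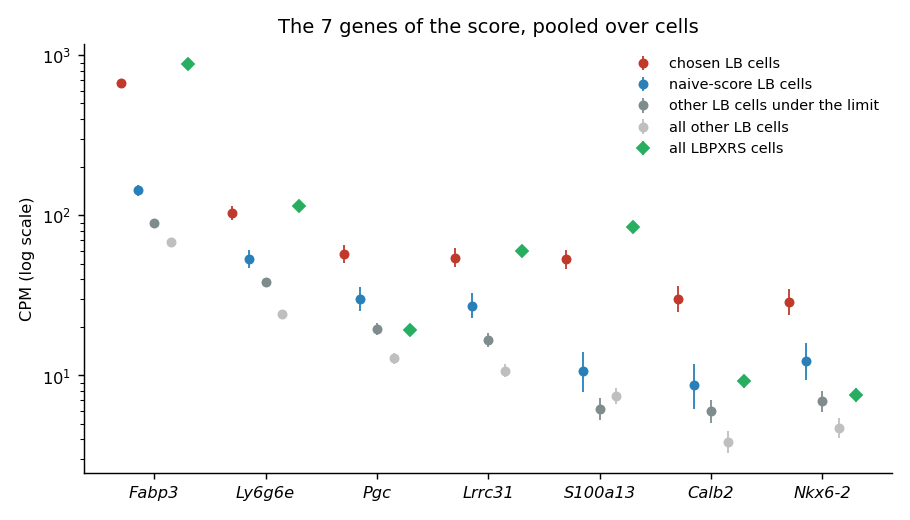
Pooled CPM (log scale) of the 7 score genes in the chosen LB cells, 3 comparison groups of LB cells and all LBPXRS cells; bars are exact 95% Poisson intervals. Fabp3 has 667 CPM in the chosen cells and 879 CPM across LBPXRS, while Calb2 and Nkx6-2 have 30.2 and 28.7 CPM in the chosen cells and 9.18 and 7.60 CPM in LBPXRS.

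Part of each difference comes from choosing and measuring on the same UMIs, so the genes were measured again on UMIs that had no part in the choice. With cells chosen on a random 50% of the UMIs and measured on the remainder, 145 of the score cells (83.3%) were chosen again. The log2 ratios against the others were then 3.02 for Fabp3, 2.41 for S100a13, 2.33 for Nkx6-2, 2.08 for Calb2, 1.93 for Lrrc31, 1.92 for Ly6g6e and 1.89 for Pgc. Calb2 moved most, from 2.69 to 2.08. Each gene was also measured in cells chosen on the other 6. S100a13 then had 46.5 CPM against 8.12 CPM (5.72-fold), Nkx6-2 26.1 against 4.97 CPM (5.26-fold), Fabp3 443 against 87.9 CPM (5.04-fold) and Calb2 22.4 against 4.58 CPM (4.88-fold). Lrrc31, Ly6g6e and Pgc were 3.82-fold, 3.46-fold and 3.45-fold higher. Each of the 7 genes was thus also higher in cells that the remaining 6 had picked. These ratios are against all other LB cells, which include those over the limit. Whether they hold among the cells under the limit was not tested.

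Score cells had a median of 4 of the 7 genes, and 117 of the 174 (67.2%) had 4 or more, while 200 of the 1609 others (12.4%) did, with a median of 1. With every cell thinned to 5000 UMIs, the medians were 2 and 0. All 7 genes were detected in 4 score cells and in 1 other LB cell.

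Because free RNA can place UMIs in cells that do not make a transcript, the shares of cells with a UMI were set beside those of 199 LB cells with at least 5 UMIs of the mesoderm genes Hand1 and Foxf1. Median depths were 23223.5 UMIs in the score cells, 25593 in the others and 27573 in the Hand1 and Foxf1 cells. Calb2 was seen in 35.1% of score cells (28.0% to 42.6%), 7.64% of the others and 1.51% of the Hand1 and Foxf1 cells. After thinning to 5000 UMIs, which left 170, 1563 and 199 cells, the shares were 11.8%, 1.79% and 1.01%. For Nkx6-2 they were 35.1%, 9.14% and 2.51% at full depth and 10.0%, 1.98% and 1.01% after thinning. Since the score cells were chosen on these UMIs, the higher share in them was set by the rule. Lrrc31 (59.2%, 18.2% and 2.01%), Pgc (64.9%, 20.8% and 3.52%) and Ly6g6e (81.0%, 31.1% and 5.53%) were ordered the same way. S100a13 was not: it was seen in 37.4% of score cells, 14.9% of the others and 19.6% of the Hand1 and Foxf1 cells, and its thinned shares were 17.6%, 3.26% and 4.02%. Fabp3 was the most widespread, at 98.9%, 54.4% and 35.2%, or 91.8%, 23.2% and 12.1% after thinning.

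The score genes lie apart in the genome. In GRCm38 (mm10) with GENCODE annotation, Fabp3 is at chr4:130308595-130315463 on the + strand, Calb2 at chr8:110137502-110168210 (−), Nkx6-2 at chr7:139579376-139582797 (−), Lrrc31 at chr3:30679058-30699843 (−), S100a13 at chr3:90514435-90524581 (+), Pgc at chr17:47726842-47734482 (+) and Ly6g6e at chr17:35076902-35078804 (+). Promoter windows of 300 bases, from 250 before to 50 after the start, were found in RefSeq (GRCm38.p6) for 5 of the 7. The RefSeq start behind the Fabp3 window lies downstream of the GENCODE start given here. The windows of Fabp3, which led the score, of Nkx6-2, and of S100a13, whose window also reaches the start of the neighbouring S100a1, are printed 5′ to 3′ on the gene's own strand, with matches to the motifs searched in capitals. The Fabp3 window is chr4:130308488-130308787 (+), that of Nkx6-2 chr7:139582748-139583047 (−) and that of S100a13 chr3:90514185-90514484 (+).
Fabp3: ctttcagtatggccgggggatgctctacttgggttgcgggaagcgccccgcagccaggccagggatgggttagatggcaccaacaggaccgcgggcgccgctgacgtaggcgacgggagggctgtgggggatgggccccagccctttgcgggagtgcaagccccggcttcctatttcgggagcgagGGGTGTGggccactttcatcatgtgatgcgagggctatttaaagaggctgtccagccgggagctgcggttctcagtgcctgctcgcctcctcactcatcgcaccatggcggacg
Nkx6-2: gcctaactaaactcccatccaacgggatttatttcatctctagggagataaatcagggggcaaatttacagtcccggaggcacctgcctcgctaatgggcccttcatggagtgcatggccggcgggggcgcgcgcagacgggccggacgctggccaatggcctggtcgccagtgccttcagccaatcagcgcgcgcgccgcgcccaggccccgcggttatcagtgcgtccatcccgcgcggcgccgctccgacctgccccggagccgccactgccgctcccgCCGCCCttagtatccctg
S100a13: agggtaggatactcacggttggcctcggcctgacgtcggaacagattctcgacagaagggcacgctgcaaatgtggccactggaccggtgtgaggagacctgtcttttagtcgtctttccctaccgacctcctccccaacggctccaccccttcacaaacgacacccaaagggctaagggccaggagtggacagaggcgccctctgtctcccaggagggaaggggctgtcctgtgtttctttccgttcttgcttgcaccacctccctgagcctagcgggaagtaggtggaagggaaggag

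The exact letters of 5 motifs were searched on both strands: GGGTGTG (KLF factors), GGGCGG (KLF or SP factors), AAGGTCA (ESRRB), CTTTGA (TCF factors of the WNT pathway) and TATAAA (the TATA box). The Fabp3 window held 1 GGGTGTG, which occurs in 7.95% of 32851 promoter windows of this length. The capitals in the Nkx6-2 window are GGGCGG read on the opposite strand, a motif present in 35.7% of all windows, and the Pgc window held GGGCGG at 2 places and TATAAA (13.6% of all windows) at 1. No match was found in the Lrrc31 and S100a13 windows, and none of the 5 windows held AAGGTCA or CTTTGA, which occur in 4.72% and 16% of all windows. None of the 5 motifs contains another, and a match of letters is a description, not a binding site.

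When genes had to reach 10 CPM in 1 of the 2 sums of cells, 193 of 7373 (2.62%) were at least 2-fold higher in the score cells than in all other LB cells, and 562 (7.62%) were at least 2-fold lower. Against the others under the limit, 77 of 7034 (1.09%) were higher and 160 (2.27%) lower. The median log2 ratio over all these genes was −0.20 and −0.13. A TMM scaling of the sums moved the first median by 0.17, to −0.04, and turned 193 higher and 562 lower genes (25.6% of calls higher) into 289 and 412 (41.2%), so that list medians are read relative to the median of all genes.

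**Figure D3:**
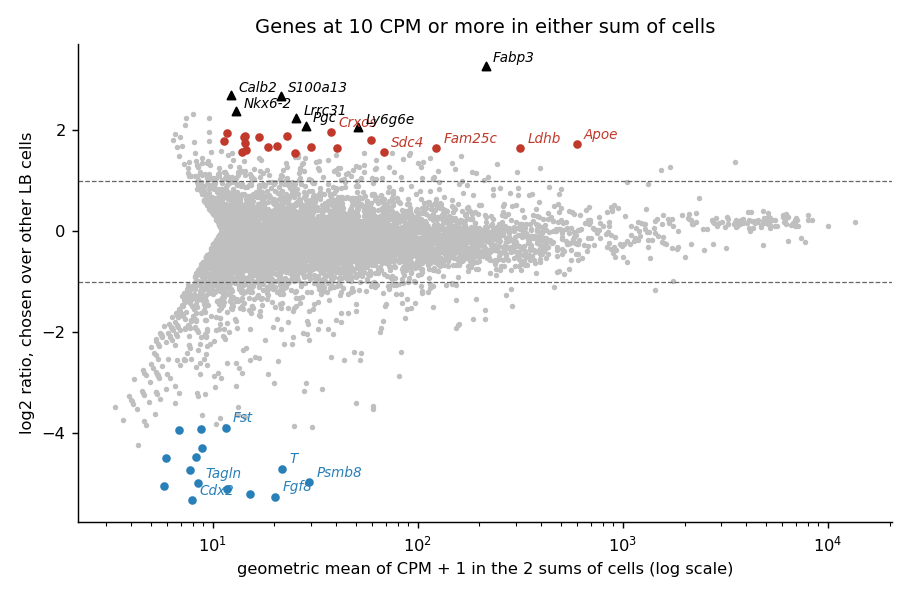
Log2 ratio of CPM + 1 in the chosen cells over all other LB cells (vertical axis) against the geometric mean of both (log scale), for genes that reach 10 CPM in 1 of both sums. Black triangles are the 7 score genes, red and blue points the 20 highest and 15 lowest named genes, and dashed lines mark 2-fold; the lower genes reach −5.34 (Cdx2), while the red points reach 1.96 (Crxos).

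The 20 genes that differed most upwards, among those that reached 20 CPM and with score genes left out, had log2 ratios of 1.55 to 1.96 against all others. Crxos, a homeobox gene expressed in embryonic stem cells, led with 73.1 CPM (65.0 to 82.0) against 18.1 CPM. It was followed by Acss1, the mitochondrial acetyl-CoA synthetase (22.0 against 4.97 CPM), Pla1a, a secreted phospholipase (26.7 against 6.48 CPM), and Lrrc34, a leucine-rich repeat gene (43.2 against 10.97 CPM). Several were abundant. Apoe, the lipid carrier apolipoprotein E, had 1084 CPM (1052 to 1116) against 327 CPM, Ldhb, a lactate dehydrogenase subunit, 557 against 178 CPM, Fam25c 217 against 68.6 CPM, and the heparan sulfate proteoglycan Sdc4 116 against 38.8 CPM. Khdc3 (52.7 against 15.96 CPM), known from the oocyte and early embryo, Rec114, a meiotic recombination gene (32.0 against 9.43 CPM), and Patl2 (31.0 against 7.76 CPM), an RNA-binding protein of oocytes, were among them too. Others among the 20 were Ahnak2, Gm49504, Gm15879, Ttyh2, Copz2, Srrm4os, E330020D12Rik and Ildr1.

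Some of these differences shrank when the limit was applied to both sides and some did not. Crxos went from a log2 ratio of 1.96 to 1.32, Khdc3 from 1.66 to 1.01 and Fam25c from 1.65 to 0.98. Ldhb stayed at 1.63, with 180 CPM in the others under the limit, and Copz2, a subunit of the COPI vesicle coat, was 1.73, with 35.7 against 10.1 CPM. Ahnak2, a large scaffold protein gene, had 26.2 CPM (21.4 to 31.7) against 5.72 CPM under the limit and 6.48 CPM in all others. Among genes that reached 20 CPM, with score genes left out, it had the largest ratio under the limit (2.02). Ndufa4l2, a mitochondrial protein gene known to be induced by low oxygen, came next with 101 CPM (91.3 to 111) against 25.96 CPM (1.92).

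Among genes that reached 20 CPM, the 15 lowest against all other LB cells were Cdx2, Fgf8, Hand1, Isg15, Gbp2b, Tagln, Psmb8, Mesp1, T, Sprr2a3, Pmp22, Rspo3, Car4, Wnt3 and Fst, with log2 ratios of −3.89 to −5.34. Against the naive-score cells (other LB cells rich in naive genes, described further on) none of the 15 passed 2-fold in either direction. Hand1, Mesp1 and T were held down by the rule. Under the limit, T had 3.25 CPM in the score cells and 3.34 CPM in the others, and Hand1 1.498 and 2.05 CPM. Other genes of the streak and its derivatives remained apart. Fgf8, a growth factor of the primitive streak, had 9 UMIs, or 2.25 CPM (1.03 to 4.27), against 34.0 CPM under the limit, and Cdx2, a factor of trophoblast and posterior mesoderm, 1 UMI against 9.66 CPM. Gbp2b, an interferon-induced GTPase, had 0 UMIs, which is at least 43.0-fold lower than the 32.2 CPM of all others when set at a floor of 3 counts. Psmb8, a subunit of the immunoproteasome, was found in 14 of 174 score cells (8.05%), in 53.3% of all others and in 68.3% of the Hand1 and Foxf1 cells (2.94%, 33.5% and 45.7% after thinning), at 4.24 CPM (2.47 to 6.80) against 165 CPM, or 51.2 CPM under the limit. The lowest genes under the limit also included Pim2, a kinase gene (8.24 against 81.8 CPM, log2 ratio −3.16), Sox11 (2.996 against 26.3 CPM), Zyx (2.75 against 22.0 CPM) and Igfbp3 (5.49 against 27.2 CPM).

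Gene lists were described by counts over those of their genes whose CPM averaged 1 or more over both sums. Over all genes so filtered, 3.13% of 12333 were at least 2-fold higher and 10.1% lower than in all others, and 1.46% and 4.52% of 12150 against the others under the limit. Naive pluripotency genes were higher. Against all others all 18 were above 0 and 8 were at least 2-fold higher, with a median log2 ratio of 0.94. The 8 were Klf2, Klf4, Esrrb, Tfcp2l1, Dppa5a, Tcl1, Fgf4 and Pecam1. Klf4, a naive factor and LIF target, had 84.9 CPM against 33.6 CPM in all others and 49.5 CPM under the limit. Tfcp2l1 had 50.2 against 18.8 and 29.3 CPM, Esrrb 49.2 against 20.5 and 32.2 CPM, and Klf2 608 against 253 and 390 CPM. Under the limit none reached 2-fold in either direction, 15 of 18 were above 0 and the median was 0.46. Summed over the list, the score cells had 8006 CPM (7919 to 8095) against 3424 and 5151 CPM. Nanog was 105 against 94.8 CPM under the limit, and Zfp42 634 against 598 CPM.

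Of 10 core pluripotency genes none was 2-fold higher and 1, Lin28a (41.2 against 90.0 CPM), was 2-fold lower than in all others, with a median of 0.05. Under the limit 2 of 10 were above 0 and the median was −0.20. Pou5f1, the Oct4 gene, had 735 CPM against 717 CPM in all others and 864 CPM under the limit.

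Formative genes were lower. Of 15, none was 2-fold higher and 9 were 2-fold lower than in all others (median −1.36), and 8 were lower under the limit (median −1.01). Against the naive-score cells none of 12 passed 2-fold (median −0.30), and in cells chosen on Calb2 and Nkx6-2 alone the median against all others was −0.70. Dnmt3b, a de novo DNA methyltransferase, had 20.5 CPM (16.3 to 25.4) against 125 CPM in all others and 157 CPM under the limit, and it was detected in 58 score cells (33.3%), 64.2% of all others and 62.8% of the Hand1 and Foxf1 cells, or 10.6%, 31.6% and 16.1% after thinning. Dnmt3a had 8.74 against 28.3 CPM, and Pou3f1 2.996 against 29.1 CPM. Fgf5 had 1 UMI in the 174 cells. Otx2 had 31.2 against 38.5 CPM in all others, a log2 ratio of −0.29, and 53.6 CPM under the limit (−0.76). Of the other DNA methylation genes, the maintenance enzyme Dnmt1 had 52.7 against 47.6 CPM and Tet1, which oxidises methylcytosine, 97.4 against 65.3 CPM; the list of 12 had 3 lower genes and a median of −0.04, which was 0.11 under TMM scaling.

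Lineage genes were lower in the score cells than in all other LB cells, in part because the rule set limits on 4 of them. Against the naive-score cells the list medians differed by lineage. They were 0.12 for primitive streak (0 of 8 past 2-fold), 0.56 for mesoderm (1 of 7 higher, 1 lower) and 0.40 for primitive endoderm genes (0 of 5 past 2-fold). Trophoblast genes had 0.32 and node and notochord genes 0.42. Endoderm and gut genes had −0.29 (1 of 6 lower) and neural genes −0.23 (0 of 4 past 2-fold), beside −0.01 over all genes. In the naive-score cells the summed levels of streak and mesoderm genes were 45.9 and 88.6 CPM. Of 13 primitive streak genes, 11 were 2-fold lower than in all others (median −3.37), and of 12 under the limit 6 were (median −1.18). Their summed level was 42.7 CPM (36.5 to 49.6), against 427 CPM in all others and 118 CPM under the limit, and Wnt3a and Lhx1 were at 0 UMIs. Of 17 mesoderm genes, 15 were lower than in all others (median −1.75) and 5 of 13 under the limit (median −0.78), while the summed level under the limit was 150 CPM beside 148 CPM in the score cells. Vim, an intermediate filament gene, made up most of that sum, with 114 CPM against 74.9 CPM under the limit. Primitive endoderm genes were 2-fold lower in 7 of 10, and 2-fold higher in 2, Lama1 (6.99 against 1.78 CPM) and Hnf4a (7 UMIs, 1.75 against 0.265 CPM), with Sox17 and Foxa2 at 0 UMIs. The median was −1.17, and under the limit 2 of 8 were lower and 1 higher, with a median of −0.64. Fibroblast genes, which would mark feeder cells, summed to 4.99 CPM, from 20 UMIs of which 18 were Thy1.

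Trophoblast genes did not move together. Of 14, Gata2 and Tfap2c were 2-fold higher and 7 were 2-fold lower than in all others (median −1.12). Under the limit, 1 of 11 was higher and 4 were lower (median −0.12). The keratins of simple epithelia were low, Krt8 at 16.7 CPM against 204 CPM in all others and 47.8 CPM under the limit, and Elf5 had no UMI in any of these cells. Gata2, a trophoblast and blood factor, had 20 UMIs in 11 score cells (6.32%, interval 3.20% to 11.03%), 4.99 CPM against 1.37 CPM in all others and 0.805 CPM under the limit. Its share of the Hand1 and Foxf1 cells was 5.53%, at a median of 27573 UMIs, and after thinning 3.53% and 1.51%, so the level in the score cells rests on few cells.

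Other genes of the neural cells in which Nkx6-2 and Calb2 are known were mostly few or at 0 UMIs. Of the homeobox genes that act beside Nkx6 factors in the neural tube, Nkx6-1, Nkx2-2, Olig2 and Dbx1 had 0 UMIs in the score cells, and 1 of the 2 that passed the filter, Irx3, was 2-fold lower. Of 5 neural genes, 1 (Nes, 2.75 against 18.2 CPM) was 2-fold lower, the median was 0.13 (−0.34 under the limit), and Sox1 was at 0 UMIs, while Tubb3, a neuronal tubulin, had 28.2 against 16.6 CPM. Calb1 and Pvalb, EF-hand relatives of Calb2, were also at 0 UMIs. Zscan4 and other genes of the 2-cell embryo had no UMIs in the score cells except Ddit4l, at 22.5 against 24.7 CPM, a log2 ratio of −0.13 that was 0.019 under TMM scaling.

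**Figure D4:**
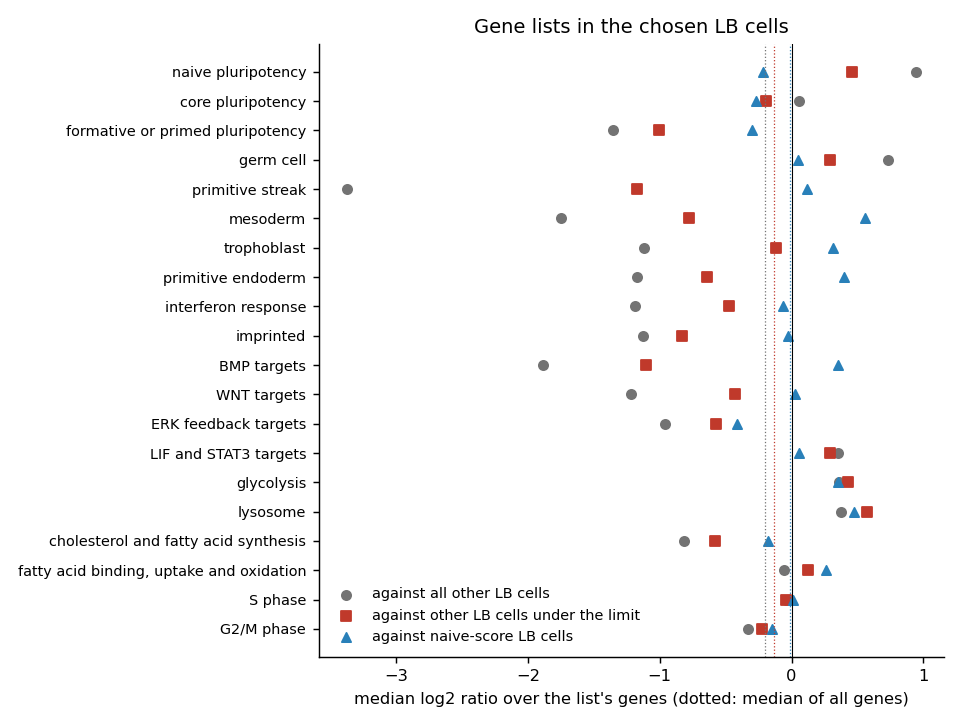
Median log2 ratio of the chosen cells over 3 comparison groups (symbols) for 20 gene lists; dotted lines give the median over all genes whose CPM averaged 1 or more. Naive genes are at 0.94 against all others, 0.46 under the limit and −0.21 against naive-score cells, which were picked for these genes, and glycolysis (0.36, 0.43 and 0.35) and lysosome genes (0.37, 0.57 and 0.47) are above 0 in all 3 comparisons.

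The culture contained BMP4, and BMP target genes were lower in the score cells than in the other LB cells. Against the naive-score cells described further on the median was 0.35, with 2 of 11 genes 2-fold higher, none lower, and 5 below 0. The summed level was nevertheless lower, 173 CPM (160 to 186) against 224 CPM (211 to 239) in the naive-score cells. Id3 was detected in 39.7% of score cells and 61.2% of naive-score cells (21.8% and 34.3% after thinning). For Id1 the shares were 32.2% and 43.8% (11.2% and 18.3% after thinning). Of 11, 7 were 2-fold lower and 2 higher, both against all others (median −1.89) and under the limit (median −1.11). Id1, a direct SMAD target that blocks bHLH factors, had 35.2 CPM (29.6 to 41.5) against 189 CPM in all others and 139 CPM under the limit, and was detected in 32.2% of score cells, 66.0% of the others and 84.4% of the Hand1 and Foxf1 cells, or 11.2%, 38.4% and 52.8% after thinning. Id2 (12.98 against 61.7 CPM), Id3 (53.9 against 156 CPM) and the BMP pseudoreceptor Bambi (13.2 against 57.6 CPM) were ordered the same way. Id4 went the other way, at 12.0 against 4.77 CPM, as did Gata2.

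Genes of other pathways differed by pathway. ERK feedback genes, which report FGF and MEK activity, were 2-fold lower in 6 of 14 (median −0.96), and under the limit in 3 (median −0.57). Among them Dusp6 had 4.24 against 19.4 CPM and Spry2 15.2 against 30.1 CPM, while Etv5 had 71.4 against 61.2 CPM. Of 11 WNT targets 7 were 2-fold lower (median −1.22), but 1 of 10 was under the limit (median −0.43); these include T and Cdx2. Axin2 had 8.49 against 17.6 CPM. Among 8 NODAL targets 1 was 2-fold lower and the median was −0.17. LIF and STAT3 targets had 3 of 12 genes 2-fold higher, Klf4, Tfcp2l1 and the kinase gene Pim1 (114 against 50.2 CPM), with a median of 0.35 and, under the limit, no gene past 2-fold and a median of 0.29. Socs3, the feedback inhibitor of LIF signalling, had 78.4 against 52.3 CPM. Against the naive-score cells no gene of these 4 lists passed 2-fold, with medians of −0.42 for ERK, 0.023 for WNT, −0.03 for NODAL and 0.058 for LIF and STAT3 genes.

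Metabolic genes divided by pathway. Of 19 glycolysis genes, 15 were above 0 and 3 were at least 2-fold higher than in all others, Ldhb, Hk1 (19.97 against 7.69 CPM) and Pfkp (85.6 against 40.7 CPM), with a median of 0.36. Under the limit the median was 0.43, and in cells chosen on Calb2 and Nkx6-2 alone it was 0.060 against all others. The lactate dehydrogenase subunits went in opposite directions, with Ldha at 774 against 995 CPM. Cholesterol and fatty acid synthesis genes were lower: none of 21 was above 0, 7 were 2-fold lower and the median was −0.82, and under the limit 4 were lower (median −0.58). Against the naive-score cells none passed 2-fold, 6 were above 0 and the median was −0.18. Hmgcs1, an early enzyme of sterol synthesis, had 49.7 against 119 CPM, and fatty acid synthase, Fasn, 48.2 against 104 CPM. Srebf2, which regulates the pathway, had 101 against 103 CPM.

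Fabp3 was higher without the rest of its family. Fabp5 had 69.7 CPM against 198 CPM in all others and 125 CPM under the limit, and Fabp7 and Fabp4 had 0 UMIs in the score cells. Of 20 genes of fatty acid binding, uptake and oxidation, 2 were 2-fold higher and 2 lower, with a median of −0.05 (0.10 under TMM scaling). The higher ones were Cpt1a, which carries fatty acids into mitochondria (15.98 against 4.70 CPM), and the acyl-CoA synthetase gene Acsl1 (21.5 against 9.74 CPM). Lysosome genes were slightly higher in 17 of 19 and 2-fold higher in 2, among them Cd9 (170 against 80.6 CPM), with a median of 0.37. Under the limit 19 of 20 were above 0 and the median was 0.57. The median against all others was 0.16 in cells chosen on the 6 genes other than Fabp3 and −0.054 in cells chosen on Calb2 and Nkx6-2 alone.

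Of 13 S100 and EF-hand genes, 4 were 2-fold lower, among them S100a6 (29.5 against 81.5 CPM) and S100a10 (172 against 416 CPM), and the median was −0.58. Under the limit none was 2-fold lower (median −0.22), and against the naive-score cells 2 were higher and 1 lower (median −0.10). The 1 gene that was 2-fold higher was S100a1, at 18.5 CPM (14.5 to 23.2) against 7.95 CPM in all others and 4.83 CPM under the limit (log2 ratio 1.74). It starts 43 bases from S100a13 on the opposite strand. Other neighbours were examined. Of 28 nearest protein-coding neighbours of the 7 genes, 20 passed the filter, 4 were 2-fold higher than in all others and 1, Mdfi near Pgc, was 2-fold lower, beside 3.13% and 10.1% of all genes. The other 3 higher ones were Lrrc34 (31189 bases from Lrrc31), Frs3 (18.97 against 7.81 CPM, 22556 bases from Pgc) and Hydin near Calb2 (9 UMIs), of which Frs3 and Hydin were not 2-fold higher under the limit (log2 ratios 0.86 and 0.85). Whether the counting used strand is not given in the sources used here, so reads of overlapping genes may have been shared. Inpp5a, which overlaps Nkx6-2 on the opposite strand, had 3.50 against 7.21 CPM, and Zcchc17, which overlaps Fabp3, 36.0 against 58.0 CPM. Gm10570, which also overlaps Fabp3 on the opposite strand, had 5 UMIs, 1.25 against 0.121 CPM. Ly6g6d, which overlaps Ly6g6e, had 9.74 against 4.44 CPM.

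Against the other LB cells, germline genes leaned upwards and imprinted and interferon response genes downwards by list median. Against the naive-score cells the medians were 0.048 for germ cell genes (0 of 13 past 2-fold), −0.02 for imprinted genes (2 of 16 higher, 0 lower) and −0.07 for interferon response genes (0 of 14 past 2-fold). Of 13 germ cell genes, 4 were 2-fold higher (median 0.73) and 2 under the limit (median 0.29). The X-linked homeobox genes of the Rhox cluster led, with Rhox5 at 235 against 91.2 CPM, Rhox6 at 18.0 against 3.83 CPM and Rhox9 at 13.98 against 3.42 CPM. Of 18 imprinted genes 11 were 2-fold lower (median −1.13) and 7 under the limit (median −0.83), with Meg3 at 315 against 680 CPM, H19 at 14.2 against 162 CPM and Peg10 at 8.99 against 79.5 CPM. Of 16 interferon response genes 10 were 2-fold lower (median −1.19), and of 15 under the limit 6 (median −0.48). They include the class I genes H2-K1 (5.99 against 39.2 CPM) and B2m (30.2 against 71.0 CPM), whereas Ifitm1, a germline and stem cell marker, had 810 against 577 CPM.

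Epithelial junction genes were 2-fold higher in 1 of 18, the claudin gene Cldn4 (52.4 against 19.5 CPM), and lower in 4, with a median of −0.24; Cdh1 had 55.9 against 65.5 CPM. Mesenchymal genes were 2-fold lower in 5 of 9 (median −1.58) and in 2 of 8 under the limit (median −0.60), but against the naive-score cells 2 of 5 were higher and none lower (median 0.42). Their summed level was 254 CPM in the score cells, 201 CPM under the limit and 161 CPM in the naive-score cells. Cell cycle genes differed little. Of 19 S phase genes none passed 2-fold and the median was −0.04 (0.11 under TMM scaling), and of 20 G2/M genes none did either, although 1 of the 20 was above 0 (median −0.33). Of the stress lists, p53 targets had a median of −0.13 (0.022 under TMM scaling), and the integrated stress response one of −0.27, with 2 of 10 genes 2-fold lower. The latter median was 0.039 with the score taken without Fabp3 and −0.012 in cells chosen on Calb2 and Nkx6-2 alone. Of 11 dissociation-induced genes 4 were 2-fold lower, Fos, Jun, Atf3 and Zfp36, and Dusp1 was higher (40.2 against 16.2 CPM), with a median of −0.43. Under the limit 1 was lower and 1 higher, with a median of −0.36, and against the naive-score cells described further on, none of 10 passed 2-fold (median 0.17).

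Of 7 endoderm and gut genes 1, Cxcr4, was 2-fold lower (median −0.24), and under the limit 0 of 6 passed 2-fold (median −0.36). In cells chosen on Calb2 and Nkx6-2 alone the median against all others was 0.34. Of 6 node and notochord genes 3, among them T, were 2-fold lower (median −1.86, and −0.20 under the limit). Of 10 retinoic acid genes 1 was higher, Stra8, and 3 were lower (median −0.89), while under the limit none of 9 was higher and 2 were lower (median −0.25). Of 12 Notch and Hes genes 2 were lower (median −0.48, and −0.18 under the limit), and against the naive-score cells 1 of 11 was higher and none lower (median 0.12). Of 10 Ly6 and other GPI-anchored surface proteins, the family of Ly6g6e, 2 were lower, Cd24a and Prnp (median −0.01, and 0.12 under TMM scaling). Among 5 nuclear RNAs, Neat1 was 2-fold higher (20.2 against 8.80 CPM) and Meg3 lower, with a median of 0.34, and the 3 Y-linked genes had a median of −0.16.

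A closer comparison was with 178 other LB cells under the limit with the highest summed share of the 18 naive genes. Like the score cells, they are a range of a score and not a type. Of 6729 genes that reached 10 CPM, 38 (0.565%) were at least 2-fold higher in the score cells than in the naive-score cells and 17 (0.253%) lower, and over the lists 1.6% and 0.83% of 11809 genes were. The naive-score cells had a higher summed naive level by their choice, 9254 against 8006 CPM, with Klf4 at 91.9 against 84.9 CPM. Since the score cells had been removed first, lower levels of the score genes in the naive-score cells were fixed by the rule. Those levels were 143 CPM for Fabp3, 53.5 for Ly6g6e, 30.1 for Pgc, 27.3 for Lrrc31, 12.3 for Nkx6-2, 10.6 for S100a13 and 8.67 CPM for Calb2. Each of these was above its level in all 968 other cells under the limit.

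Since the naive-score cells were picked for the naive genes, these were largely kept from being higher in the score cells. Of the 18, 2 were above 0 and 1, Dppa2, was 2-fold lower (median −0.21). Among genes that reached 20 CPM, with score genes left out, the 8 highest were Ahnak2 (log2 ratio 1.82), Ndufa4l2 (1.79), Bhlhe40 (1.71), Anxa2 (1.62), Gpx3 (1.49), Cyba (1.38), Copz2 (1.32) and Espn (1.22). Ndufa4l2 had 101 against 28.4 CPM, and Bhlhe40, a transcriptional repressor that responds to low oxygen among other signals, 27.7 (22.8 to 33.4) against 7.80 CPM. Anxa2, a membrane-binding annexin, had 37.9 against 11.7 CPM, but 57.4 CPM in all other LB cells, and Gpx3, a glutathione peroxidase, had 36.0 against 12.1 CPM but 83.4 CPM in all others. These 2 genes were therefore not highest in the score cells. S100a1, which did not reach 20 CPM, had 18.5 against 3.25 CPM. Glycolysis genes were above 0 in 18 of 19 (median 0.35), with Hk1 at 19.97 against 7.80 CPM, and lysosome genes in 16 of 19 (median 0.47). No core pluripotency gene of 10 was above 0 (median −0.27). By the same filter, the 8 lowest were Slc7a3 (13.5 against 34.9 CPM), an arginine transporter gene, Fgf17, Ina, S100a6, Rarg, Bspry, Dppa2 (29.0 against 60.2 CPM) and Gm46332, with log2 ratios of −1.03 to −1.31. Dnmt3b was at 39.2 CPM in the naive-score cells beside 20.5 CPM in the score cells.

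Against 178 LB cells under the limit with the highest share of formative genes, 367 of 7534 genes (4.87%) were at least 2-fold higher and 859 (11.4%) lower, and 5.83% and 13.8% of 12342 genes under the list filter. The formative-score cells were picked for the formative genes, so lower formative genes in the score cells were fixed by that choice. Naive genes were 2-fold higher in 14 of 18 (median 1.83), and formative genes 2-fold lower in 13 of 15 (median −1.87). The score cells had been removed before this choice too, so higher score genes in them were fixed by the rule. Of these genes, Calb2 differed by a log2 ratio of 2.84, Nkx6-2 by 2.07 and Fabp3 by 4.54.

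Within the score cells, the 93 with Calb2 or Nkx6-2 and the 81 without differed in the summed level of several lists. Their median depths were 23633 and 22167 UMIs, and a deeper cell is more likely to show a low gene. The cells with either gene had more of the naive genes, 8221 CPM (8103 to 8340) against 7732 CPM (7602 to 7863), with Klf4 at 101 against 63.8 CPM and Tfcp2l1 at 59.99 against 37.6 CPM. Dnmt3b was at 16 against 26.2 CPM in them. Their sums were also higher for LIF and STAT3 targets (663 against 554 CPM), p53 targets (627 against 521 CPM) and integrated stress response genes (755 against 655 CPM). The same held for glycolysis (8865 against 8278 CPM), fatty acid genes (491 against 399 CPM), Ly6 and GPI-anchored proteins (811 against 692 CPM) and mesenchymal genes (281 against 220 CPM). Sums were lower for lysosome genes (1687 against 1887 CPM), endoderm and gut genes (553 against 639 CPM) and nuclear RNAs (7146 against 7675 CPM). Fabp3 (646 against 694 CPM), S100a13 (53.3 against 53.6 CPM) and Ldhb (564 against 550 CPM) were alike in size, and Apoe was lower (987 against 1207 CPM).

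Across the 1783 LB cells, the genes most like Calb2 by Pearson correlation of log-normalised values were Crxos (r = 0.34), Fam25c (0.30), 1700097N02Rik (0.30), Dpys (0.29) and Ly6g6e (0.29). Those most like Nkx6-2 were Fabp3 (0.26), Crxos (0.24), Dppa5a (0.24), Klf4 (0.24) and Jam2 (0.23). These are weak values of sparse genes in cells of 1 library that differ in depth. Fabp3 gave higher ones, with Dppa5a (0.54), Klf2 (0.53), Tdh (0.52), Apoe (0.52) and Ooep (0.50).

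When all LB cells were clustered on their variable genes, the score cells fell mainly into 2 of 8 clusters. Cluster 5, led by Calb2, S100a13, Lrrc31, Fabp3, Crxos, Pgc, Ndufa4l2 and Pglyrp1, held 87 of them, which is 50% of the score cells and 48.3% of its own 180 cells (40.8% to 55.9%). Cluster 1, of 579 cells led by Gm46332, Gm14820, Hsd17b14 and Zfp42, held 68 (39.1% of the score cells, 11.7% of the cluster). Another 17 were in cluster 7, led by Slc7a3, Pmel and Spp1, whose 61 cells had a median of 10944 UMIs. None lay in clusters 2, 4 and 6, led by Prdm6 and Foxf1, by Sprr2a3 and T, and by Cxcl10, and 1 each in clusters 3 and 8. Since the score genes took part in this clustering, it was repeated without them. A cluster of 100 cells then held 63 score cells (63.0% of it, interval 52.8% to 72.4%, and 36.2% of the score cells), and when all genes were ranked in it afterwards, S100a13, Fabp3, Lrrc31, Calb2, Ndufa4l2, Crxos, Gstm3 and Gm15879 led. A cluster of 658 cells held 92 more (52.9%). At a resolution of 1, which gave 13 clusters, 7 held a score cell, and the 2 that held most had 83 and 38 of them (69.5% together). The score cells therefore do not coincide with 1 cluster.

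**Figure D5:**
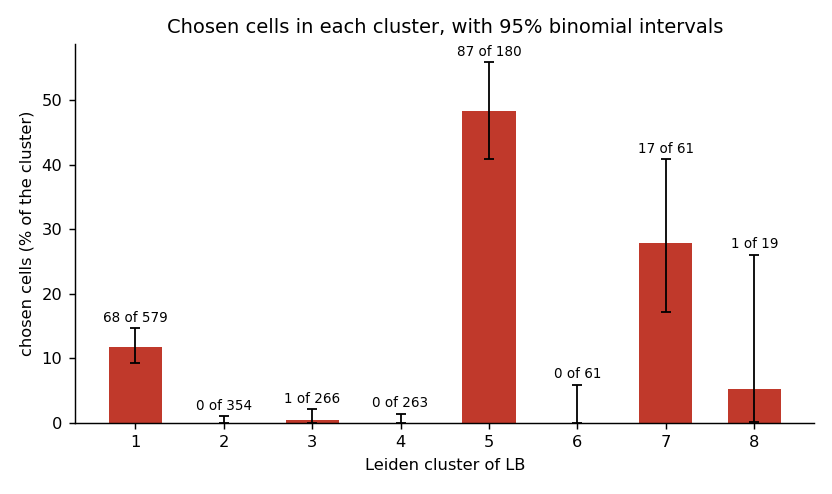
Share of chosen cells (percent) in each of 8 Leiden clusters of the LB cells, with exact 95% binomial intervals and counts above the bars. Cluster 5 holds 87 of 180 and cluster 7 17 of 61, while clusters 2, 4 and 6 hold 0.

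In quality measures the score cells were close to the others, with somewhat fewer genes. They had a median of 23223.5 UMIs and 4088.5 genes, against 25593 and 4554 in the others, and 2.64% against 2.72% mitochondrial UMIs. After thinning to 5000 UMIs the medians were 1650.5 and 1789 genes. Scrublet marked 0 of 174 score cells as doublets (upper limit 2.10%) and 12 of the 1609 others (0.746%). A Y-linked UMI was found in 31.2% of thinned score cells and 28.7% of the others.

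In LBPXRS, whose cells had no part in the choice and nearly lacked Y-linked UMIs, the score genes differed in level from LB by unequal amounts. Across that library Fabp3 stood at 879 CPM, S100a13 at 84.6, Lrrc31 at 59.6 and Ly6g6e at 114 CPM, above the 121, 11.5, 14.6 and 31.2 CPM of the whole LB library. Pgc (19.2 against 16.7 CPM), Calb2 (9.18 against 6.16 CPM) and Nkx6-2 (7.60 against 6.84 CPM) differed less. The LB threshold was met by 2065 of 2705 LBPXRS cells (76.3%), beside the 178 of 1783 that the top 10% takes in LB. Fabp3 was detected in 99.2% of LBPXRS cells (90.5% after thinning), beside 98.9% (91.8%) of the score cells.

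The same rule applied within LBPXRS took 270 cells, all under the limit. With each gene measured in cells chosen on the other 6, S100a13 was 6.27-fold higher than in the remaining cells (362 against 57.8 CPM), Fabp3 2.62-fold (2005 against 766 CPM) and Lrrc31 1.94-fold (107 against 55.0 CPM). Pgc (22.5 against 18.8 CPM), Ly6g6e (109 against 114 CPM), Nkx6-2 (6.92 against 7.67 CPM) and Calb2 (6.71 against 9.43 CPM) had ratios of 1.20, 0.951, 0.903 and 0.712. In LB the same ratios were 3.45 to 5.72. Calb2 and Nkx6-2 were thus higher in LB cells chosen on the other score genes and were not in LBPXRS cells chosen that way; this difference between single libraries was not tested. Of the 20 genes named as highest in the LB score cells, 14 were above 0 in the 270 LBPXRS cells and 4 were at least 2-fold higher, Acss1, Patl2, Ahnak2 and Apoe, where 1.65% of 12121 genes were 2-fold higher and 1.39% lower. Ahnak2 had 113 against 38.2 CPM and Apoe 2636 against 942 CPM. Crxos, which led in LB, had 1.93 CPM across LBPXRS. Naive genes had a median of −0.18 there, core genes −0.74 and lysosome genes 0.87, beside −0.12 over the 7017 LBPXRS genes that reached 10 CPM.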

How the data were processed

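The deposited data were UMI counts per gene and barcode of 2 single-cell libraries, LB and LBPXRS, made by the authors with 10x Genomics 3′ chemistry per the labels' protocols, and with Cell Ranger 4.0.0 on mm10 per the submitters' processing notes. The strand setting of the counting is not given in the sources used here. The filters, the score and the limit on T, Mesp1, Hand1 and Foxf1 are those stated in the report, and no doublets were removed. LB had 45490517 UMIs in 1783 kept cells (225 barcodes left out) and LBPXRS 51832444 in 2705 (406 left out). The cells, lists and comparisons were chosen with earlier results of these data known.

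UMIs were summed over cells and given as CPM, with log2 ratios of CPM + 1. Intervals were exact Poisson (CPM) and Clopper-Pearson (shares), both at 95% (scipy 1.17.1, Python 3.11.15). A gene with 0 counts was set at a floor of 3 counts for its bound. With 1 library per condition no test was made, and cells are not replicates. Clusters (scanpy 1.11.5) used 2000 variable genes, 30 components, 15 neighbours and a Leiden resolution of 0.5. TMM factors came from edgeR 4.0.16. Gene positions came from GENCODE M21, which matched 32235 of 32285 genes, and promoters from RefSeq. The scoring and pooled ratios were checked on simulated data.

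Named genes were the score and limit genes, the 20 highest and 15 lowest log2 ratios against all other LB cells among genes that reached 20 CPM, the 8 highest and 8 lowest against each of the cells under the limit and the naive-score cells, the 5 most like each of Calb2, Nkx6-2 and Fabp3, and members of 39 gene lists, led by those past 2-fold. Naive-score and formative-score cells were the LB cells under the limit, score cells left out, with the highest summed shares of those lists. Alternatives varied the filters, score, limit, depth, scaling, pseudocount and comparison cells. Scores of Calb2 and Nkx6-2 alone and of Fabp3 alone were added after Fabp3 was seen to lead. A few genes that met these rules are not reported here.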

Additional observations from a re-analysis of the deposited data

Results flagged for a closer look

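The score genes were also present in LB barcodes that the filters left out and that entered no comparison. These 225 barcodes held 740013 UMIs, of which 227 were of the 7 genes, or 307 CPM (268 to 349), beside 207 CPM in the kept cells, and 73 of the barcodes had at least 1 such UMI.

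Trophoblast genes had a median log2 ratio of 0.73 in the 270 cells that the same rule chose in LBPXRS, where 5 of 10 were at least 2-fold higher and none lower, and of −1.12 in the LB score cells against all other LB cells, which is the opposite sign. In LB the median was −0.12 under the limit and 0.32 against the naive-score cells. The difference between the libraries was not tested.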

How the results depend on the processing

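The main values are 174 cells, 193 genes at least 2-fold higher and 562 lower than in all other LB cells, and the list medians in the report. Of 1012 list medians under alternatives, 941 stayed within the counting interval of the main value and 71 moved, and of 1638 values of named genes 1303 stayed and 335 moved. All 53 named genes past 2-fold kept their sign in every alternative run. The 53 include the score genes, chosen as high, and the limit genes, held down by the rule. The naive-score comparison was not among the alternatives. There some genes that were lower against all others were above 0, such as T (log2 ratio 0.42), Rspo3 (0.48) and Fst (0.38). Some list medians moved by over 1.5 times within the counting interval. Examples are formative to −0.70 in cells chosen on Calb2 and Nkx6-2 alone and primitive endoderm to −0.58 with a pseudocount of 5 CPM. Retinoic acid moved to −0.25 under the limit. The alternatives that moved a count by over 1.5 times or a list median beyond the interval were these; the causes were not tested. With the top 5% of cells, 87 cells were chosen, and medians were 0.45 for glycolysis, −0.37 for S100 and EF-hand, −0.72 for Ly6 and GPI-anchored and −1.29 for imprinted. With the top 20% of cells, 346 cells were chosen, and medians were 1.20 for naive, 0.17 for core, −2.27 for node and notochord, 0.16 for glycolysis and 0.20 for lysosome. Against the other cells under the limit, 77 genes were 2-fold higher and 160 genes were 2-fold lower, and medians were 1.91 for score genes, 0.46 for naive, −0.20 for core, −1.18 for primitive streak, −0.78 for mesoderm, −0.12 for trophoblast, −0.20 for node and notochord, 0.29 for germ cell, −0.43 for WNT targets, −1.11 for BMP targets, 0.43 for glycolysis, −0.22 for S100 and EF-hand, −0.60 for mesenchymal, −0.83 for imprinted and −0.48 for interferon response. With a pseudocount of 5 CPM, 111 genes were 2-fold higher and 366 genes were 2-fold lower, and medians were 1.92 for score genes, −1.74 for primitive streak, −0.80 for node and notochord and −0.62 for mesenchymal. Without a filter on low values, 395 genes were 2-fold higher and 1398 genes were 2-fold lower, and medians were −0.64 for node and notochord and −0.20 for fibroblast. With a CPM minimum of 50 for counts and a mean CPM minimum of 10 for lists, 69 genes were 2-fold higher and 125 genes were 2-fold lower, and medians were −3.92 for primitive streak, −3.26 for mesoderm, −3.53 for trophoblast, −3.53 for node and notochord, −0.81 for neural, 0.58 for LIF and STAT3 targets and −0.29 for mesenchymal. With cells chosen on Calb2 and Nkx6-2 alone, 128 genes were 2-fold higher and 356 genes were 2-fold lower, and medians were 1.75 for score genes, 0.17 for core, −1.76 for trophoblast, 0.34 for endoderm and gut, −0.47 for WNT targets, −0.84 for BMP targets, −0.012 for integrated stress response, 0.060 for glycolysis and −0.054 for lysosome. With cells chosen on Fabp3 alone, medians were 1.98 for score genes and 0.25 for glycolysis. With cells thinned to 5000 UMIs, medians were 0.16 for core, −2.50 for node and notochord, −1.29 for Nkx6-context homeobox, −1.79 for WNT targets, −0.081 for integrated stress response and 0.20 for glycolysis. With TMM scaling, medians were 0.21 for core, −0.11 for integrated stress response, 0.52 for glycolysis and 0.50 for nuclear RNA. With cells chosen on a random 50% of the UMIs and measured on the rest, medians were 0.12 for core and −3.01 for node and notochord. With a pseudocount of 0.1 CPM, medians were −4.62 for primitive streak, −2.79 for mesoderm, −1.74 for primitive endoderm, −2.30 for node and notochord, −1.56 for WNT targets, −2.58 for mesenchymal and −2.04 for fibroblast. With each score gene scaled by its SD, medians were −1.78 for trophoblast, −0.77 for WNT targets and −0.084 for integrated stress response. With the score taken without Fabp3, medians were −0.69 for 2-cell embryo, 0.039 for integrated stress response and 0.16 for lysosome. With the score taken without Calb2, the median was 0.25 for glycolysis. With the score taken without Ly6g6e, the median was 0.36 for nuclear RNA. Leaving out a replicate could not be done with 1 library per condition. No paired analysis was possible because each condition had 1 library. Shares and CPM of genes with few UMIs, such as Gata2 and Hnf4a, are limited by depth.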
